A study of Mus musculus with 6 samples.

Results

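The mouse genes Xcl1, Xcr1, Flt3l and Flt3 were followed across the cells of CT26 tumors. They form a pair of ligand and receptor routes between natural killer (NK) cells and type 1 conventional dendritic cells (cDC1). They are 4 of the 31053 genes in the deposited count table, taken by name with no threshold on their values. CT26 is a mouse colon carcinoma line, here grown under the skin of female Balb/c mice that were 5 to 6 weeks old when obtained. Tumors were taken 5 days after treatment and enriched for CD45+ cells with beads before their mRNA was sequenced cell by cell in droplets. The unit is the UMI (unique molecular identifier), a tag that lets copies of a captured transcript be counted once. The sample labels list 6 samples, 2 given vehicle, 2 the low dose and 2 the high dose of an anti-PD-1–GITR-L bispecific, a molecule that blocks the checkpoint receptor PD-1 and engages the costimulatory receptor GITR. The labels give the high dose as 30 mg/kg, and the low dose as 10 mg/kg in the treatment protocol but as 30 mg/kg in the sample characteristics. The table holds 4 libraries, named M1, M2, M5 and M6, and no label pairs them with a treatment. Each library is therefore reported by its own name, no dose is compared with vehicle, and no p-value is given. The study's text names isotype as the control of this experiment, where the labels say vehicle, and gives a dose and a number of mice that no label ties to these libraries.

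XCL1 is a chemokine released by activated NK cells and CD8+ T cells, and XCR1 is its receptor, which in mice is carried by cDC1, the dendritic cells specialized in cross-presenting antigen to CD8+ T cells. FLT3L is a growth factor that sustains dendritic cells and their precursors through the receptor tyrosine kinase FLT3, and lymphocytes including NK cells are known sources of it in tumors. The table covered 33961 cells with 12 annotation labels that the authors derived from ImmGen reference profiles. A cell's label came from its own transcripts. Levels by label, such as those of Xcr1, Flt3 and the cDC1 genes in DC, are therefore not independent of the labelling. Libraries held 7160 to 10294 cells and 158337797 to 315577167 UMIs. Of the cells, 222 carried a barcode found in more than 1 library. A level in CPM is the gene's UMIs, summed over the cells of a label, per 1000000 UMIs of those cells. It is pooled over the libraries unless a library is named. Of the 12 labels, 8 had at least 20 cells in every library and were compared. The label Stroma had little of the CD45 gene Ptprc, at 7.47 CPM against 1240 in NK cells and 988 in ILC, so this label is not described as leukocytes. The label ILC (innate lymphoid cells) carried NK markers: the 6 NK marker genes summed to 9829 CPM in ILC, 18045 in NK cells and at most 1653 in the other labels compared. Among them, the granzyme gene Gzma alone gave 15149 of the 18045 CPM in NK cells. The NK cell receptor gene Ncr1 stood at 422 CPM in ILC and 450 CPM in NK cells. The 5 T cell marker genes summed to 1098 CPM in ILC, 420 in NK cells and 5275 in T cell EFF. A UMI of a CD3 chain was found in 2138 of the 4628 ILC cells.

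All 4 genes are protein-coding and lie on the minus strand of the mouse genome GRCm38. In the GENCODE annotation, Xcl1 is on chromosome 1 from 164931644 to 164935527 with 3 exons, and Xcr1 on chromosome 9 from 123852315 to 123862029 with 2 exons. Flt3l is on chromosome 7 from 45129788 to 45136432 with 9 exonic blocks over 13 transcripts, and Flt3 on chromosome 5 from 147330741 to 147400489 with 25. Flt3l shares 856 of its 3878 exonic bases with Gm45713, a transcript on the same strand, to which the table gives 2 UMIs. Whether reads from the shared bases were lost to the count of Flt3l was not tested. The antisense gene Gm20743, which the table does not list, covers 98 of the 523 exonic bases of Xcl1. Because Xcl1 and Xcr1 are the chemokine and its receptor and were high in different labels, the 250 bases before their RefSeq starts are shown, 5′ to 3′ on the gene's strand (GRCm38.p6, chr1:164935523-164935772 and chr9:123862030-123862279). Capitals mark matches, on either strand, to short cores searched in all 32851 promoter windows of that length.
Xcl1: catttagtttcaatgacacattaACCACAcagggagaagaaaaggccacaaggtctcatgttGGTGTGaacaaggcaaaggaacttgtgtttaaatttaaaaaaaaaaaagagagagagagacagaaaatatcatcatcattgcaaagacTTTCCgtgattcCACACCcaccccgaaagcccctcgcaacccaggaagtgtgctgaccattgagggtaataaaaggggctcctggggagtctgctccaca
Xcr1: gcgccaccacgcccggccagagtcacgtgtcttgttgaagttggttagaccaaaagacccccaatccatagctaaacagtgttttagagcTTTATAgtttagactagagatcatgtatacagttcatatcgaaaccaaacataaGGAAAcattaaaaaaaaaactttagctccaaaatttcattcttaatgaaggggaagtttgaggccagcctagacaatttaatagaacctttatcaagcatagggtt

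The Xcl1 window held 2 matches to the T-box core GGTGTG, at 188 to 183 bases before the start and, on the opposite strand, at 88 to 83. Of all windows, 16.3% hold at least 1 match to this core, and the share with 2 was not computed. The Xcl1 window also held 1 match to the RUNX core TGTGGT (14.0% of windows) at 227 to 222 and 1 to the NFAT core GGAAA (55.6% of windows) at 100 to 96, both on the opposite strand. The Xcr1 window held neither GGTGTG nor TGTGGT. It held 1 GGAAA, at 106 to 102, and on the opposite strand 1 TATAAA (12.4% of windows) at 160 to 155. No match to the PU.1-type core GAGGAA (23.3% of windows) or the AP-1 core TGANTCA (6.75%) was found in the window of any of the 4 genes, and GGGCGG (32.7%) was found only in that of Flt3l. None of these matches overlapped another. The bases G and C made up 44% of the Xcl1 window and 38.8% of the Xcr1 window, against a median of 52.4% over all windows. The shares of windows given here were not adjusted for this. A match is a run of letters, not a bound site.

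Xcl1 was highest in cells labelled ILC. Its level there was 447 (library M1), 529 (M2), 475 (M5) and 377 CPM (M6). In NK cells the level was 183 (M1), 216 (M2), 159 (M5) and 180 CPM (M6). Every ILC value lay above every NK cells value. Pooled, the level was 2.46-fold higher in ILC than in NK cells, with log2 differences of 1.06 to 1.57 within libraries. Of 7761 genes with at least 10 CPM in either label, 10.8% had their lowest ILC library above their highest NK cells library, so this separation was not rare among genes. ILC was the highest of the 8 labels in all 4 libraries for 15 of 9709 genes (0.154%), Xcl1 among them. This share depends on the label, and was 2.32% for NK cells, 2.52% for T cell EFF and 6.88% for DC. ILC was taken because Xcl1 was highest there, so the share does not measure how unusual Xcl1 was.

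T cell EFF, the label of effector T cells, reached the same pooled Xcl1 level as NK cells, 182 CPM in both. Within T cell EFF the libraries spread more widely, with 141 (M1), 119 (M2), 199.8 (M5) and 258 CPM (M6). T cell EFF was below NK cells in M1 and M2 and above them in M5 and M6, so the order of these labels differed between libraries. ILC stayed above T cell EFF in all 4 libraries, 2.45-fold pooled, without overlap, as did 13.8% of genes in that comparison. NKT had 128 CPM (84.2 to 195 over the libraries) and T cell MEM 80.6 CPM (54.6 to 139). In the order from T cell EFF down through NK cells, NKT, T cell MEM and Myeloid, each neighboring pair overlapped over the libraries. DC at 18.9 CPM (6.61 to 30.7) and Stroma at 1.73 CPM (1.34 to 1.96) lay below all of these without overlap.

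**Figure D1:**
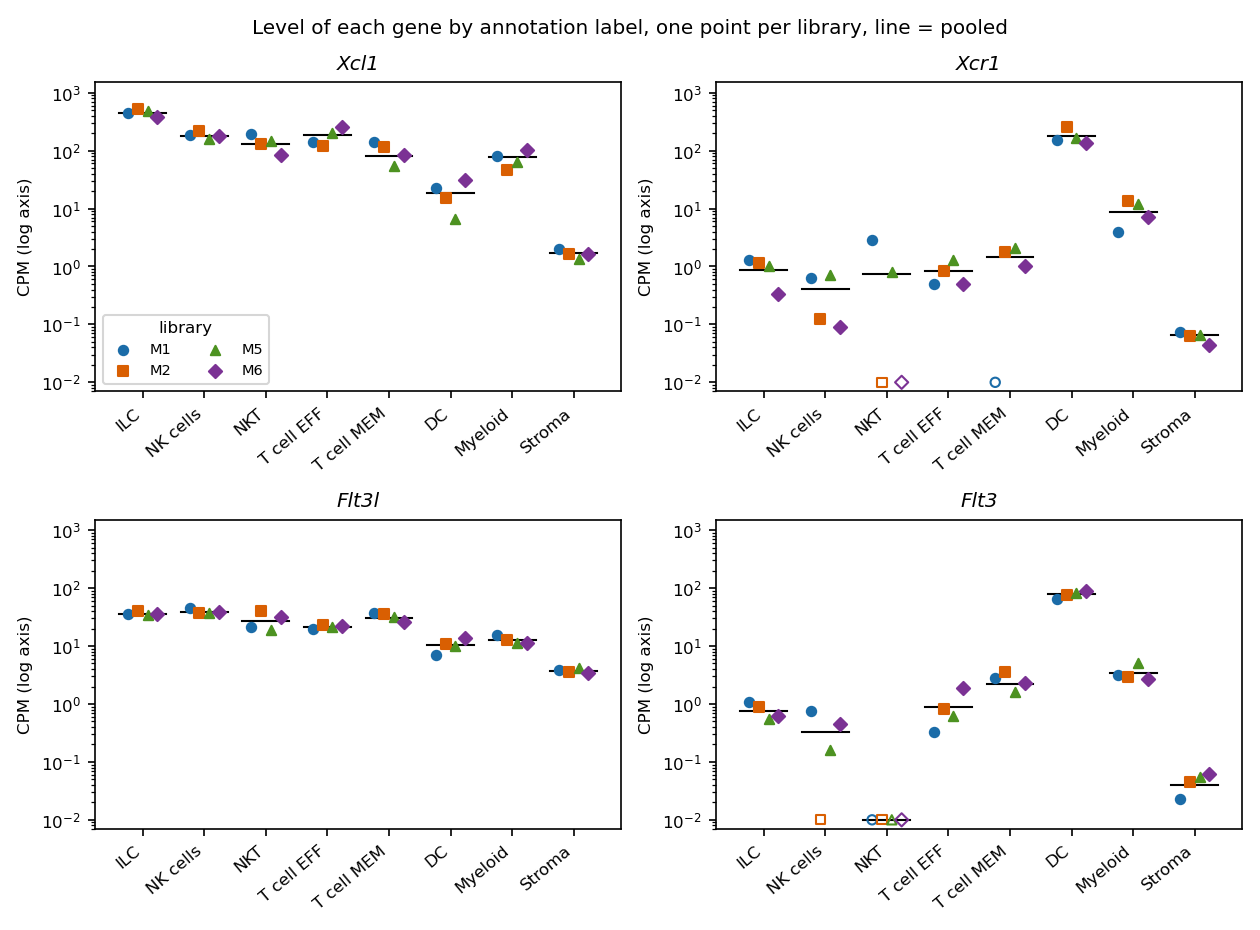
Level of each gene in CPM (log axis) in the 8 labels with at least 20 cells in every library. Each symbol is a library, the line is the pooled level, and open symbols at the bottom mark libraries with 0 UMIs, which include all 4 NKT libraries for Flt3. Xcl1 was highest in ILC, Flt3l in NK cells and ILC, and Xcr1 and Flt3 in DC.

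The excess of Xcl1 in ILC over NK cells was clearest in cells without CD3 transcripts and at matched depth. It was computed in cells picked by transcripts, in groupings chosen after the data were seen. Among cells with an Ncr1 or Klrb1c UMI and no CD3 chain UMI, Xcl1 was at 582 CPM in 2266 ILC cells (507 to 645 over the libraries) and 151 CPM in 2825 NK cells (113 to 177). ILC cells with a CD3 chain UMI had 367 CPM (283 to 460 over the libraries), against 574 CPM in ILC cells without. NK cells went the other way, with 239 CPM (168 to 300.4) in cells with a CD3 chain UMI and 149 CPM in those without, so that the labels overlapped over the libraries among cells with a CD3 chain UMI. Cells with such a UMI were also deeper, with a median of 13329 UMIs against 7659.5 in ILC and 8438 against 4755 in NK cells, and the part of depth in this split was not tested. In cells of 5000 to 15000 UMIs, the level was 764 CPM in ILC, 216 CPM in NK cells and 202 CPM in T cell EFF. In T cell EFF cells with UMIs of a CD3 chain and of Cd8a or Cd8b1, 3353 of the 3633 cells, Xcl1 was at 189 CPM.

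To compare how many cells carried a gene, 2000 UMIs were drawn from each cell and shallower cells were left out. Xcl1 was then found in 38.6% of 4519 ILC cells (95% exact binomial interval 37.2 to 40.1), 16.1% of 4218 NK cells (15.0 to 17.2) and 13.1% of 3545 T cell EFF cells (12.0 to 14.3). These intervals, like all others here, cover counting error only. In Stroma, which should lack the gene, the share was 0.326% of 15642 cells (0.243 to 0.428). Thinning left out 109 ILC, 180 NK, 88 T cell EFF and 45 Stroma cells. From all UMIs the shares were 60.2%, 26.8%, 26.3% and 4.40%, in labels whose cells had a median of 9773.5, 5397, 10049 and 40692 UMIs.

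Xcl1 was unevenly spread among cells of a label. In ILC, 2784 cells carried it, with a median of 5 UMIs in those cells and a highest value of 374. The 896 ILC cells with 10 or more UMIs made up 19.4% of the label and held 77.4% of its Xcl1. In NK cells, 160 cells (3.64%) reached 10 UMIs and held 61.0%. In T cell EFF, 210 cells (5.78%) held 76.2%, and the highest cell had 569 UMIs. Most of the Xcl1 of each of these labels was thus in a small part of its cells. These counts were not thinned, and median depth was 9773.5 UMIs in ILC, 5397 in NK cells and 10049 in T cell EFF. The part of depth in them was not tested. For Flt3l, whose level was too low for many cells to reach 10 UMIs, positive NK cells had a median of 1 UMI and at most 8. The highest 5% of ILC cells held 42.3% of the Xcl1 UMIs of the label and 32.4% of its Flt3l UMIs. For NK cells these shares were 67.9% and 37.7%, and for T cell EFF 73.2% and 38.4%.

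**Figure D2:**
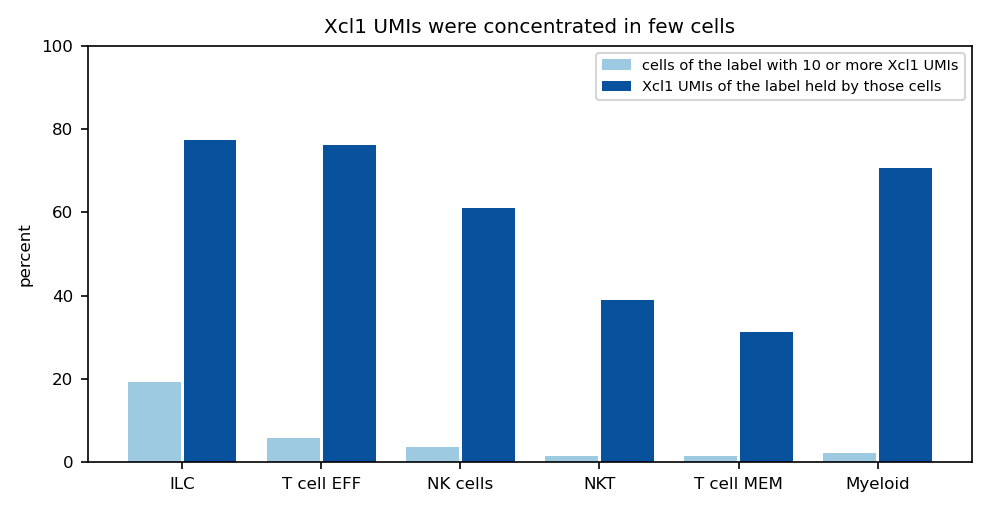
Share of cells with 10 or more Xcl1 UMIs (light bars, percent of the cells of a label) and share of the Xcl1 UMIs of the label that those cells held (dark bars), all libraries pooled. In ILC 19.4% of cells held 77.4% of the UMIs, and in NK cells 3.64% of cells held 61.0%. Cells were not thinned to a common depth.

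Of all 52741 Xcl1 UMIs, 57.5% were in ILC (52.9 to 59.8 over the libraries), 18.2% in T cell EFF (13.0 to 21.9), 13.6% in NK cells (12.2 to 17.7) and 5.56% in Myeloid. NK cells and ILC together held 71.1%. For comparison, the same labels held 90.9% of the 51016 Ncr1 UMIs, and T cell EFF held 1.97% of them. The study's bulk profiling of whole tumors, a separate experiment at another time after dosing, scored NK cells with Ncr1 and Xcl1. The study also reported individual NK receptor genes there, and more NK cells by single-cell sequencing. In the present CD45+-enriched cells, T cell EFF contributed far more to Xcl1 than to Ncr1. What each cell type gave to the bulk score was not tested.

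The Myeloid label had 77.2 CPM of Xcl1, with 79.7 (M1), 46.5 (M2), 64.8 (M5) and 102 CPM (M6), and NK cells had 2.35 times as much. NK cells lay above Myeloid in every library without overlap, as did 35.4% of genes. The Myeloid value rested on few cells: 382 of 2680 carried Xcl1, the 5 highest cells held 33.3% of the UMIs, and 1 cell held 605. The level depended on which cells were counted. It was 37.6 CPM as a mean over cells of each cell's own level, 45.2 CPM without cells holding both lymphocyte and C1q UMIs, and 18.7 CPM in cells of 5000 to 15000 UMIs, where NK cells had 216 CPM. Of its 2935 Xcl1 UMIs, 2852 (97.2%) were in cells that also carried a CD3 chain or Ncr1 UMI, as 1167 Myeloid cells did. All 5 T cell and all 6 NK marker genes were present in Myeloid cells, at summed levels of 521 to 979 CPM and 1038 to 2035 CPM over the libraries, against 4595 to 5685 CPM (T cell EFF) and 14829 to 20179 CPM (NK cells). Whether doublets or free RNA gave this signal was not tested.

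**Figure D3:**
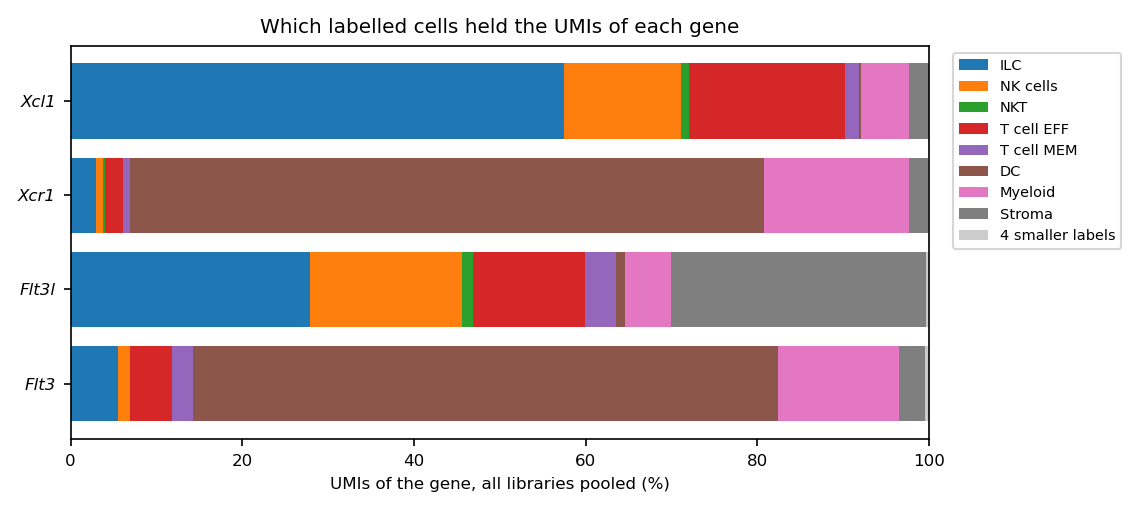
Percent of the UMIs of each gene found in each label, all libraries pooled. Most Xcl1 was in ILC (57.5%), most Xcr1 (73.9%) and Flt3 (68.2%) in DC, and Flt3l was divided among Stroma (29.6%), ILC (27.9%), NK cells (17.7%) and T cell EFF (13.0%).

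Flt3l was highest in NK cells and ILC, and its levels were less spread among lymphocyte labels than those of Xcl1. In NK cells it was at 44.6 (M1), 36.7 (M2), 37.6 (M5) and 39.4 CPM (M6). In ILC it was at 35.2 (M1), 40.2 (M2), 34.4 (M5) and 36.0 CPM (M6). These labels overlapped, and NK cells were higher in 3 of 4 libraries. T cell MEM had 31.0 CPM (26.3 to 37.6) and NKT 27.5 CPM (19.2 to 40.6), and each overlapped its neighbors in the order.

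Effector T cells had less Flt3l. T cell EFF was at 19.7 (M1), 23.5 (M2), 21.3 (M5) and 22.5 CPM (M6), below every NK cells value. The level was 1.81-fold higher in NK cells than in T cell EFF, with log2 differences of 0.62 to 1.14 within libraries, and 15.1% of genes were separated in the same way. T cell MEM was 1.43-fold above T cell EFF and did not overlap it, as 14.6% of genes did not. For Xcl1 the pooled direction between these T cell labels was the opposite, at 80.6 CPM in T cell MEM and 182 in T cell EFF, with overlapping ranges. The labels were close in M1 (139 and 141 CPM) and M2 (115 and 119). The gap lay in M5 (54.6 and 199.8) and M6 (83.2 and 258). After thinning, 8.23% of NK cells (7.41 to 9.10), 7.68% of ILC (6.92 to 8.49), 6.56% of cells labelled T cell MEM and 5.39% of those labelled T cell EFF carried Flt3l, against 0.850% of Stroma cells (0.712 to 1.01). Without thinning, the shares were 25.3% in NK cells and 34.2% in ILC, so the order of these labels depended on the thinning.

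Flt3l UMIs were also found outside the lymphocyte labels. Myeloid had 12.6 CPM (11.2 to 15.8 over the libraries), DC 10.4 (7.11 to 13.8) and Stroma 3.75 (3.48 to 4.16). NK cells were 10.5-fold above Stroma and 3.13-fold above Myeloid in pooled level, without overlap, as were 40.4% and 35.4% of genes, and Myeloid was 3.35-fold above Stroma, as were 39.1% of genes in separation. Stroma made up 46.2% of cells and 75.6% of all UMIs, and held 29.6% of the 8760 Flt3l UMIs, ranging from 17.1% to 43.9% over the libraries. Relative to NK cells, the Flt3l level of Stroma was 9.55% (8.80 to 11.1 over the libraries). For the 6 NK marker genes, which Stroma should lack, the same quantity was 0.278% (the granzyme gene Gzma) to 0.580% (the receptor gene Klre1), and for Xcl1 it was 0.954%. Relative to NK cells, Flt3l in Stroma thus lay above the range of the NK marker genes in every library. The genes compared differ in spread. Outside NK cells and ILC, the 6 NK marker genes summed to at most 1652.5 CPM, against 18045 in NK cells. Flt3l was at 10.4 CPM or more in every compared label except Stroma. The Xcl1 value depends on the label it is set against, since ILC had 447 CPM of Xcl1 and NK cells 182 CPM. Whether Stroma cells transcribe Flt3l, or free RNA gave these UMIs, was not tested.

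**Figure D4:**
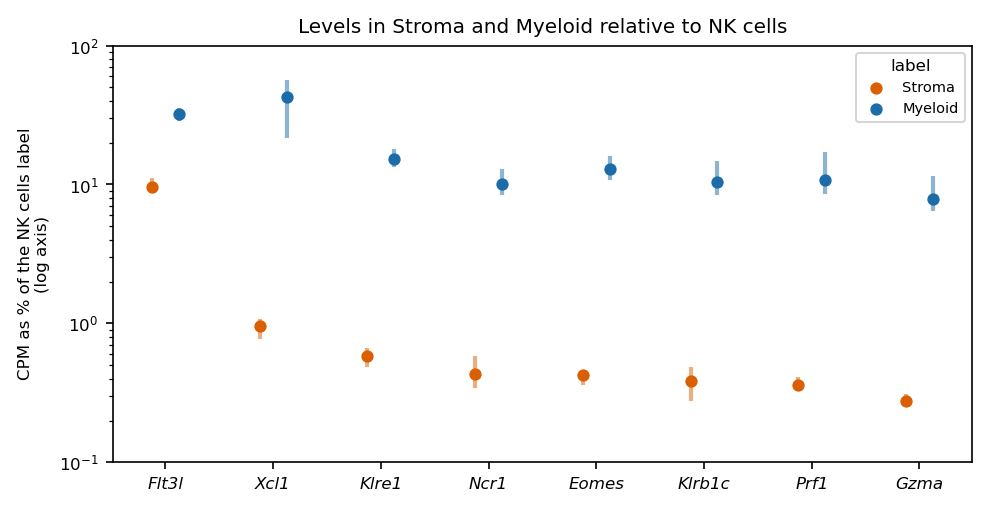
Level in Stroma and in Myeloid as percent of the level in NK cells (log axis), for Flt3l, Xcl1 and 6 NK marker genes. Points are pooled values and lines span the 4 libraries. In Stroma, Flt3l stood at 9.55% and the NK marker genes at 0.278% to 0.580%. In Myeloid, Flt3l (28.4% to 35.4% over the libraries) and Xcl1 (pooled 42.6%, 21.5% to 56.5% over the libraries) were above the NK marker genes (pooled 7.80% to 15.2%). The Xcl1 level of Myeloid fell to 18.7 CPM in cells of 5000 to 15000 UMIs, where NK cells had 216.

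Xcr1, the XCL1 receptor gene, was largely restricted to DC. Its level there was 152 (M1), 254 (M2), 167 (M5) and 134 CPM (M6). M2 was the highest, and no library overlapped another label. In Myeloid it was 3.89 (M1), 13.3 (M2), 12.1 (M5) and 7.28 CPM (M6), and in the other 6 labels compared it was at most 1.44 CPM pooled. DC was 20.5-fold above Myeloid, with log2 differences of 3.68 to 4.97 within libraries and no overlap, which 17.1% of genes also showed. In DC cells of 5000 to 15000 UMIs the level was 72.1 CPM, lower than over all depths, and 34.1 times that of Myeloid cells in the same window. DC held 73.9% of the 1999 Xcr1 UMIs and Myeloid 16.8%. After thinning, 17.3% of 539 DC cells (14.2 to 20.7) carried Xcr1, against 0.903% of Myeloid, 0.119% of NK and 0.0128% of Stroma cells. Without thinning it was found in 174 of 556 DC cells (31.3%), whose median depth was 9549 UMIs.

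Within DC, cells were assigned to the subset whose marker genes they carried most of, leaving Xcr1 and Flt3 out of the lists. Cells with mostly cDC1 markers numbered 255, and 163 of them carried Xcr1. Their Xcr1 level was 244 (M1), 415 (M2), 300.2 (M5) and 256 CPM (M6). They held 1451 of the 1478 Xcr1 UMIs of DC (98.2%). With cells thinned to 2000 UMIs, the cDC1 group held 76.8% of the Xcr1 UMIs of DC. Cells assigned to no group then held 20.4%, at 91.8 CPM. The 43 cells with cDC2 markers had 1.47 CPM and the 96 with markers of CCR7-positive, that is migratory or mature, dendritic cells had 14.0 CPM (8.53 to 26.2). None of the 99 cells with plasmacytoid (pDC) markers had an Xcr1 UMI, which allows a share of up to 3.03% of cells with a UMI and sets no limit on cells expressing it. Of the 174 Xcr1-positive DC cells, 169 carried at least 2 other cDC1 markers, 140 carried Clec9a, the gene of a cDC1 receptor for dead cells, and 120 carried Flt3. Over all 556 DC cells these numbers were 382, 254 and 276. The assignment was close for some cells, since 162 of 556 had their leading lists within 1 marker gene of each other and 36 of these were tied.

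**Figure D5:**
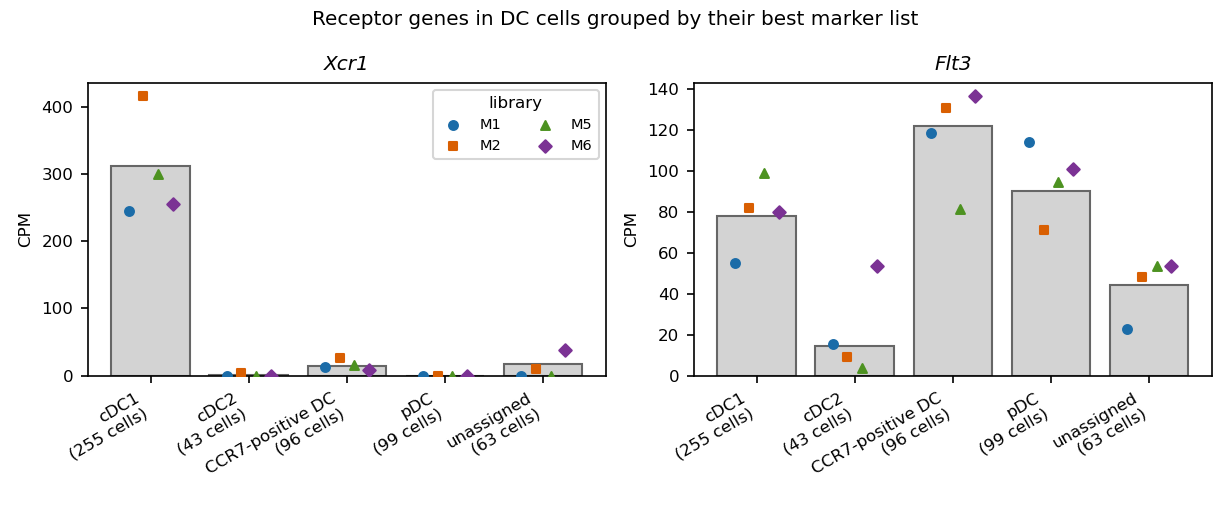
CPM of Xcr1 and Flt3 in DC cells grouped by the marker list of which they carried most genes. Bars are pooled levels and symbols the 4 libraries. Xcr1 was at 312 CPM in the cDC1 group and at most 16.9 in the others, whereas Flt3 was at 122 in the CCR7-positive, 90.1 in the pDC and 78.3 in the cDC1 group. With cells thinned to 2000 UMIs, not shown, Xcr1 was at 326 CPM in the cDC1 group and 91.8 CPM in unassigned cells.

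Flt3, the FLT3L receptor gene, was likewise highest in DC, at 64.0 (M1), 76.1 (M2), 80.9 (M5) and 90.5 CPM (M6). Myeloid had 3.18 (M1), 2.98 (M2), 5.18 (M5) and 2.68 CPM (M6). DC was 22.5-fold above Myeloid in pooled level, and all DC libraries lay above all Myeloid libraries, the separation that 17.1% of genes showed. T cell MEM had 2.21 CPM, and the other 5 labels compared had at most 0.875 CPM. DC held 68.2% of the 930 Flt3 UMIs. After thinning, 13.9% of DC cells (11.1 to 17.1) carried Flt3. None of 4218 NK cells had a UMI of it at that depth, which allows a share of such cells of up to 0.0711%, and none of 15642 Stroma cells, which allows 0.0192%. These limits are not on cells expressing the gene. Unthinned, a Flt3 UMI was found in 276 of 556 DC cells (49.6%), 8 of 4398 NK cells (0.182%) and 25 of 15687 Stroma cells (0.159%).

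Flt3 was spread over more dendritic cell groups than Xcr1. Its level was 122 CPM in the CCR7-positive group (95% exact Poisson interval 102 to 145), 90.1 in the pDC group (73.3 to 110) and 78.3 in the cDC1 group (70.5 to 86.8). Over the libraries these were 81.5 to 137, 71.2 to 114 and 55.3 to 99.1 CPM, so the groups overlapped. After thinning the pDC group was the higher, at 115 CPM against 101 in the CCR7-positive group. The cDC2 group had 14.7 CPM (7.06 to 27.1) from 10 UMIs, and its value in M6, from 5 cells, was 53.7. The cDC2 marker genes summed to 357 CPM in DC and 569 CPM in Myeloid. That list therefore does not set the group apart from Myeloid cells, and its level may not be that of cDC2. The cDC1 group held 57.4% of the Flt3 UMIs of DC, the CCR7-positive group 20.7% and the pDC group 15.8%.

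Xcr1 UMIs of the Myeloid label were mostly in cells with other cDC1 transcripts. There, 319 of 336 Xcr1 UMIs were in the 833 cells with at least 2 other cDC1 marker genes. Myeloid cells with mostly cDC1 markers were deep, with a median of 25795 UMIs against 8027 in the label. They held 77.4% of the Xcr1 UMIs of Myeloid. After thinning they held 26.7% (8 UMIs), and cells assigned to no group 56.7% (17 UMIs). The part of depth was not tested. Of the 88 Xcr1-positive Myeloid cells, 28 carried Clec9a and 61 carried at least 2 of the macrophage complement genes C1qa, C1qb and C1qc, against 88 and 942 of all 2680 Myeloid cells. Relative to DC, the Myeloid level was 4.88% for Xcr1, 4.44% for Flt3 and 5.12% for Clec9a, but 11.3% to 40.3% for the other 5 cDC1 marker genes. The macrophage marker genes summed to 2145 to 4757 CPM in Myeloid and 125 to 284 CPM in DC over the libraries. In Stroma, all 45 Xcr1-positive cells had 1 UMI, and 24 of them carried at least 2 other cDC1 marker genes. Of these genes, Cadm1 was at 76.2 CPM in Stroma. It was found in 13080 of all 15687 Stroma cells, and Tlr3 in 4311. In T cell EFF, 10 of 20 Xcr1-positive cells carried at least 2 other cDC1 marker genes. The share of all Stroma or T cell EFF cells with at least 2 was not computed. These counts are therefore not shown to be particular to Xcr1-positive cells. Whether doublets or free RNA gave the Xcr1 UMIs of Myeloid, Stroma and T cell EFF was not tested.

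Some cells carried both genes of a ligand and receptor pair. Of 371 cells with Xcr1, 69 also carried Xcl1, which was found in 6383 of all 33961 cells, and these were labelled Myeloid (24), DC (16), ILC (14), T cell EFF (8), NK cells (3), Stroma (2), NKT (1) and T cell MEM (1). Flt3l and Flt3 were found together in 107 of 452 Flt3-positive cells, of which 45 were DC, and Flt3l was found in 6666 of all cells.

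Single Xcl1-positive lymphocytes were compared with Xcl1-negative cells of the same label for other secreted products, after thinning, for 6 genes in 3 labels. In NK cells, the chemokine gene Ccl5 was found in 67.6% of 679 Xcl1-positive and 58.1% of 3539 Xcl1-negative cells, and Ccl4 in 23.3% and 19.5%, both higher with Xcl1 in all 4 libraries, and in 3 of 4 without thinning. In ILC, Ccl5 (51.3% and 44.4%), Ccl4 (21.3% and 17.8%) and the interferon-γ gene Ifng (12.8% and 9.12%) were higher with Xcl1 in all 4 libraries. T cell EFF differed in Ccl5, which was found in 36.8% of 465 Xcl1-positive cells and in 1540 of 3080 Xcl1-negative cells and was lower with Xcl1 in all 4 libraries. Csf2, the gene of the growth factor GM-CSF, was higher with Xcl1 there, at 9.25% and 3.21%, in all 4 libraries. Of these 18 comparisons, 6 were higher with Xcl1 in all 4 libraries, 2 (Ccl5 and Flt3l in T cell EFF) were lower in all 4, and 10 were mixed, among them Csf2 in NK cells (0.589% with and 0.735% without Xcl1) and in ILC, and Ccl4 in T cell EFF. The Ccl5 direction in T cell EFF was not kept without thinning, when Ccl5 was higher with Xcl1 in 2 of 4 libraries. Over the 18 comparisons without thinning, 9 were higher with Xcl1 in all 4 libraries, 0 were lower in all 4 and 9 were mixed. The share of all genes with such a direction was not computed. These directions are therefore not shown to be particular to the genes named.

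Flt3l showed no common direction with Xcl1 within single cells. It was found in 8.39% of Xcl1-positive and 8.19% of Xcl1-negative NK cells, and in 7.85% and 7.57% of ILC, with overlapping intervals. In T cell EFF it was found in 4.09% (2.48 to 6.31) and 5.58% (4.80 to 6.45), lower with Xcl1 in all 4 libraries but with overlapping pooled intervals, and without thinning it was lower in 2 of 4.

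Other genes of this cell circuit were taken from a fixed list of 32, and the label with the highest level was counted. Of 9709 genes with at least 10 CPM in a label, 12.3% were highest in DC, 11.6% in Myeloid, 30.2% in Stroma, 7.74% in NK cells, 7.52% in T cell EFF and 21.7% in NKT, and 6.88%, 7.37%, 23.2%, 2.32%, 2.52% and 6.13% were so in all 4 libraries. For ILC and T cell MEM the shares were 1.35% and 7.53%, and 0.154% and 0.927% in all 4 libraries. Of 7 products and receptors of activated lymphocytes, Ccl3 (891 CPM), Ccl4 (1312 CPM) and the chemokine receptor gene Ccr1 were highest in Myeloid in all 4 libraries, not in NK or T cells. Ccl5 (3096 CPM) was highest in NK cells and Ifng (384 CPM) in T cell EFF in all 4. Csf2 was highest in Stroma, at 65.7 CPM against 46.8 in T cell EFF, in 3 of 4 libraries. Of 11 cDC1 genes, 8 were highest in DC, a label set from the cells' own transcripts. Of these, 7 were so in all 4 libraries, among them Naaa (644 CPM), Wdfy4 (228 CPM), which cross-presentation requires, and the transcription factor gene Batf3 (60.5 CPM). The exceptions were Irf8, highest in NK cells at 2076 CPM against 1563 in DC, Id2 in T cell EFF (859 CPM, highest there in 3 of 4 libraries, against 747 in DC) and Itgae in NKT (111 CPM, highest there in only 1 of 4 libraries, against 102 in DC).

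Of 4 products ascribed to cDC1, Il12b, of the interleukin-12 subunit p40, was highest in DC, at 160 CPM but 55.6 to 370 over the libraries. DC was the highest label for 12.3% of all genes, and 1 of 4 says little beside that. Cxcl9 (479 CPM), Cxcl10 (737 CPM) and Il15 (40.1 CPM) were highest in Myeloid, Cxcl10 in only 2 of 4 libraries. Cxcl9 was at 406 CPM in DC. Among 5 related growth factor and receptor genes, Csf2rb (349 CPM) and Kit (60.2 CPM) were highest in DC in all 4 libraries. Kitl (55.4 CPM), of the ligand of KIT, and Csf1 (199 CPM), of a macrophage growth factor, were highest in Stroma in all 4. Csf2ra was at 75.2 CPM in Myeloid and 74.6 in DC. Adam17, of a protease that can shed FLT3L from cells, was at 132 CPM in NKT and 127 in Myeloid. Prostaglandin E2 is a lipid mediator known to restrain NK cells and cDC1. Of 4 genes for it, the synthesis genes Ptgs2 (894 CPM) and Ptges (116 CPM) were highest in Myeloid and Stroma, and the receptor gene Ptger4 (68.9 CPM) in DC, in all 4 libraries. Ptger2 was highest in NKT at 12.2 CPM.

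Genes with the most similar pattern were sought by Pearson's r of log2(CPM + 1) over 38 sums of label by library with at least 20 cells, among 11203 genes. These points share libraries and labels and the r values are descriptions. For Xcl1 they were the granzyme gene Gzmb (r = 0.92), the NK receptor genes Klre1 (0.92) and Klrc2 (0.91), Cd160 (0.91) and Ifitm10 (0.90). Among these, Gzmb, Klre1 and Ifitm10 were highest in NK cells and Klrc2 and Cd160 in T cell EFF, whereas Xcl1 was highest in ILC. For Xcr1 they were Sept3 (0.98), Tspan33 (0.97), Gcsam (0.97), Rtn1 (0.96) and Clec9a (0.96). For Flt3l they were Cript (0.93), Ercc4 (0.92), Phf8 (0.91), Sh2d3c (0.91) and Mbnl3 (0.90), none of which is a secreted factor. For Flt3 they were Cbfa2t3 (0.92), Syngr2 (0.91), Pkib (0.90), Rogdi (0.90) and Kmo (0.90). Between the members, r was 0.82 for the receptor genes Xcr1 and Flt3, 0.73 for the ligand genes Xcl1 and Flt3l, and between −0.09 and 0.02 for each ligand with each receptor.

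Cells labelled NK cells or ILC outnumbered those labelled DC in each library. These labels are not counts of all cells with the ligand or receptor genes. T cell EFF held 18.2% of Xcl1 UMIs, and Xcr1 was seen in only part of DC. NK and ILC cells together numbered 2091 (M1), 1812 (M2), 2535 (M5) and 2588 (M6), and DC numbered 140, 153, 129 and 134. NK or ILC cells per DC were thus 14.9, 11.8, 19.7 and 19.3. Xcr1 was seen in 30.0% (M1), 37.3% (M2), 28.7% (M5) and 28.4% (M6) of DC. Over all cells of a library, Xcl1 was at 36.9 (M1), 37.8 (M2), 102 (M5) and 84.6 CPM (M6), while Stroma made up 61.2%, 57.1%, 27.2% and 30.9% of the cells. Within labels, Xcl1 in T cell EFF was also higher in M5 and M6 than in M1 and M2. In NK cells it was not (183, 216, 159 and 180 CPM), nor in ILC, and in T cell MEM it was lower in M5 and M6 (139, 115, 54.6 and 83.2 CPM). What the level over all cells owed to the share of Stroma was not tested. These shares are of cells after bead enrichment, and treatment and preparation cannot be told apart as their source.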

How the data were processed

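Single-cell mRNA-seq counts of CD45+-enriched CT26 tumor cells were analysed from 1 deposited table. The authors counted UMIs with Cell Ranger 3.0.2 on GRCm38 (mm10), state that cells above 500 UMIs were kept, and deposited raw, not normalized UMI counts per gene and cell, with other per-cell columns that hold the total, a library and a cell type label, that of the ImmGen profile it correlated with best. Every deposited cell had at least 1000 UMIs, a higher floor than the 500 stated. The sources used here name neither doublet removal nor a free RNA correction. The counts of all 33961 cells summed to the deposited totals. The 4 libraries could not be matched to the 6 samples, so the planned comparison of treatments was not made.

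UMIs were summed by label and library and scaled to 1000000 (CPM), which lets few highly expressing cells and deep cells weigh most. Log2 ratios used a pseudocount of 1 CPM. Intervals are 95% exact Poisson (levels) or binomial (shares), and 3 counts were taken as the limit behind a count of 0. Separation between labels was called when all 4 libraries of a label lay above all of the other. Cells were thinned without replacement to 2000 UMIs, a step tested on simulated data. Tools were pandas 2.3.3 and scipy 1.17.1 with numpy 2.4.6, on Python 3.11.15. Named genes were the 4 members, a fixed list of 32 genes of the circuit, cell type markers and the 5 genes most like each member. 1 gene of the circuit list is not reported here. Members, lists and tests were chosen with earlier results of these data known. Alternatives covered scaling, mitochondrial share, cells with mixed markers, the highest cells, thinning depth, marker number, shared barcodes and single libraries. Promoter windows are RefSeq's and gene positions GENCODE M21.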

Additional observations from a re-analysis of the deposited data

How the results depend on the processing

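No paired analysis was possible because the labels of the libraries carry no replicate number and match no sample, and for the same reason the planned fits between treatments (the replicate block, the other count test and the fit without a filter) were not run. Each of the 5 folds named below stayed above 1 in the alternatives computed for it. The orders that turned with thinning (Flt3l in NK cells and ILC, Ccl5 and Flt3l with Xcl1 in T cell EFF, Flt3 in the pDC and CCR7-positive groups) are given with those results. Several alternatives were chosen after seeing the data: cells of 5000 to 15000 UMIs, cells picked by transcripts, cells with shared barcodes, and, for the folds, all scalings and removals of cells. What caused the shifts below was not tested.

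As means over cells of each cell's own level, Xcl1 in ILC was 625 CPM, Xcr1 in DC 128 and Flt3 in DC 89.5, and the folds were 3.15 (Xcl1, ILC over NK cells), 3.45 (Xcl1, ILC over T cell EFF), 1.55 (Flt3l, NK cells over T cell EFF), 30.9 (Xcr1, DC over Myeloid) and 39.8 (Flt3, DC over Myeloid). Per total without mitochondrial and ribosomal protein genes, which shrinks the denominator, levels were 613 (Xcl1), 54.4 (Flt3l in NK cells), 234 (Xcr1) and 100.2 CPM (Flt3). Without the 1971 cells with both lymphocyte and C1q UMIs, Xcl1 in ILC was 480 CPM and the folds were 2.64, 2.60, 28.5 (Xcr1) and 30.4 (Flt3). Without the 5 highest cells, levels were 429 (Xcl1) and 159 CPM (Xcr1), and folds 2.76, 2.74, 25.1 and 27.4. In cells of 5000 to 15000 UMIs, levels were 764 (Xcl1), 45.3 (Flt3l), 72.1 (Xcr1) and 108 CPM (Flt3), and folds 3.54, 3.79, 1.65, 34.1 and 35.3. With NK cells and ILC summed, the Xcl1 fold over T cell EFF was 1.92. Without cells over 10% mitochondrial UMIs, 58.0% of Xcl1 UMIs were in ILC.

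Shares of positive cells moved with depth. Thinned to 1000, 4000 or not at all, they were 28.2%, 49.4% and 60.2% (Xcl1, ILC), 4.0018%, 15.3% and 25.3% (Flt3l, NK cells), 9.17%, 24.7% and 31.3% (Xcr1, DC), and 9.89%, 27.4% and 49.6% (Flt3, DC). Leaving out each library in turn gave levels of 431 to 479 (Xcl1), 37.98 to 40.1 (Flt3l), 151 to 196 (Xcr1) and 73.7 to 82.1 CPM (Flt3), folds of 2.27 to 2.63, 2.17 to 2.98, 1.71 to 1.88, 18.6 to 23.7 and 19.1 to 26.4, UMI shares of 56.8% to 59.3%, 16.5% to 19.0%, 69.3% to 77.5% and 65.1% to 69.6%, and cell shares of 38.1% to 39.9%, 7.52% to 8.71%, 15.7% to 18.6% and 13.4% to 14.7%. Without a filter on low genes, the shares of separated genes fell to 20.8% (NK cells over Myeloid), 24.2% (NK cells over Stroma), 23.9% (Myeloid over Stroma), 9.18% (DC over Myeloid), 9.46% (NK cells over T cell EFF), 7.72% (T cell MEM over T cell EFF), 9.22% and 8.17% (ILC over T cell EFF and NK cells). The 556 DC cells and the 930 Flt3 UMIs limit the precision of the receptor genes.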
